A study of Rattus norvegicus with 12 samples.

Results

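The genes described here make up the synaptic vesicle release machinery, the proteins that hold, prime and fuse transmitter-filled vesicles at nerve endings, measured in the ventral dentate gyrus of the rat. Members were chosen by gene symbol. The rule took symbols of the synaptotagmin (Syt), vesicle-associated membrane protein (Vamp), syntaxin (Stx), syntaxin-binding protein (Stxbp), complexin (Cplx) and Unc13 families, which gave 51 genes, and 14 genes by name: Syn1, Syn2, Syn3, Snap25, Syp, Sv2a, Sv2b, Sv2c, Rab3a, Rims1, Rims2, Bsn, Pclo and Cabp1. These 65 members are part of 17172 genes counted. Of them 60 passed the filter on low counts and were tested together with all other genes that passed, 11750 in all. The 5 members below the filter were Cplx4 with 0 to 3 reads per library, Stx11 with 2 to 11, Stx19 with 0 to 4, Syt15 with 0 to 17 and Syt8 with 0 to 5.

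RNA was sequenced from 12 libraries of male rats, all labelled as Sprague-Dawley strain and belonging to the Flinders lines, with 3 libraries in each of 4 groups. The Flinders Sensitive Line (FSL) serves as a model of depressive behaviour and was bred alongside its control, the Flinders Resistant Line (FRL). FRL vehicle and FSL vehicle rats drank tap water. The other libraries came from FSL rats that drank L-acetyl-carnitine (LAC), an acetyl ester of carnitine, which carries fatty acids into mitochondria, at 0.3% (w/v) in tap water for 7 days, which amounted to about 210 mg/kg per day. These rats were divided into LAC non-responders and LAC responders. The criterion for a response, the age of the rats and the number of rats behind each library were not given in the sources used here. Libraries of a group are biological replicates by their labels. The p-values set a difference against the spread between replicates, estimated over all 4 groups at once and not within the compared groups alone. FRL rats on LAC are not analysed here, and all 3 LAC comparisons with vehicle use the same FSL vehicle libraries as the comparison of the lines.

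In background, an action potential opens calcium channels in the nerve ending, and vesicles already docked and primed at the active zone fuse with the plasma membrane. Fusion is driven by SNARE proteins that zip together: a Vamp protein on the vesicle pairs with a syntaxin and Snap25 on the plasma membrane, helped by syntaxin-binding and Unc13 proteins, while complexins clamp the complex until a synaptotagmin binds calcium. In the dentate gyrus this machinery serves the granule neurons, whose mossy fibre endings reach area CA3, as well as interneurons and incoming fibres.

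Levels are given as CPM, the counts of a gene per 1000000 counts in genes after scaling of library sizes. Libraries held between 5.91 and 8.14 M counts in genes (M being 1000000), so that 3 counts, the floor of detection used here, corresponded to 0.368 to 0.511 CPM. The levels are not divided by gene length, so they compare libraries and not genes. Marker content varied between libraries. The 15 pan-neuronal markers, none at 0 in any library, averaged 7.90, 7.91 and 7.93 log2 CPM in FRL vehicle and 7.74, 7.74 and 7.50 in FSL vehicle. In LAC non-responders they averaged 7.87, 7.73 and 7.86, and in responders 7.89, 7.80 and 7.96. Among these markers Eno2 was near or under the floor, at 0.124 to 0.707 CPM, and has equal weight in the mean. Meningeal and fibroblast markers (14 of 14 in the files, 1 or 2 of them at 0 in each library, Col1a2 in all) summed to 209 to 472 CPM in FRL vehicle, 383 to 3433 CPM in FSL vehicle, 576 to 780 in non-responders and 120 to 321 CPM in responders. The highest sum was that of FSL vehicle 3. Choroid plexus markers (12 of 12, with 1 to 3 at 0 in each library) were abundant in non-responder 1 (a sum of 8240 CPM), FSL vehicle 1 (5028 CPM) and FSL vehicle 3 (697 CPM), against 139 to 243 CPM in the other 9 libraries. Thalamic markers (9 of 10 in the files) summed to 587 CPM in responder 1 and to 107 to 227 CPM in the other 11 libraries. Of these markers, Slc17a6 (274 CPM), Tcf7l2 (156 CPM), Calb2 (99.97 CPM) and Lhx9 (16.4 CPM) were higher in responder 1 than in any other library. Prkcd, Zic1, Ramp3, Rgs16 and Gbx2 lay there within the range of the others. Gbx2, which defines thalamic precursors, had at most 0.424 CPM in any library. Dentate granule neuron markers (9 of 10 in the files, with 0 or 1 at 0 in each library) averaged 3.67 log2 CPM in both FRL vehicle 2 and responder 1, against 4.34 to 4.84 elsewhere. In responder 1 Prox1 (9.19 CPM), C1ql2 (3.31 CPM), Trpc6 (16.5 CPM) and Sema5a (176 CPM) were lower than in any other library. Calb1 (192 CPM), Plk5 (22.9 CPM), Pdzd2 (94.1 CPM), Lct (0.245 CPM) and Tdo2 (0.123 CPM) lay there within the range of the others. In whole tissue, fewer cells of a type and less RNA per cell cannot be told apart.

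**Figure D1:**
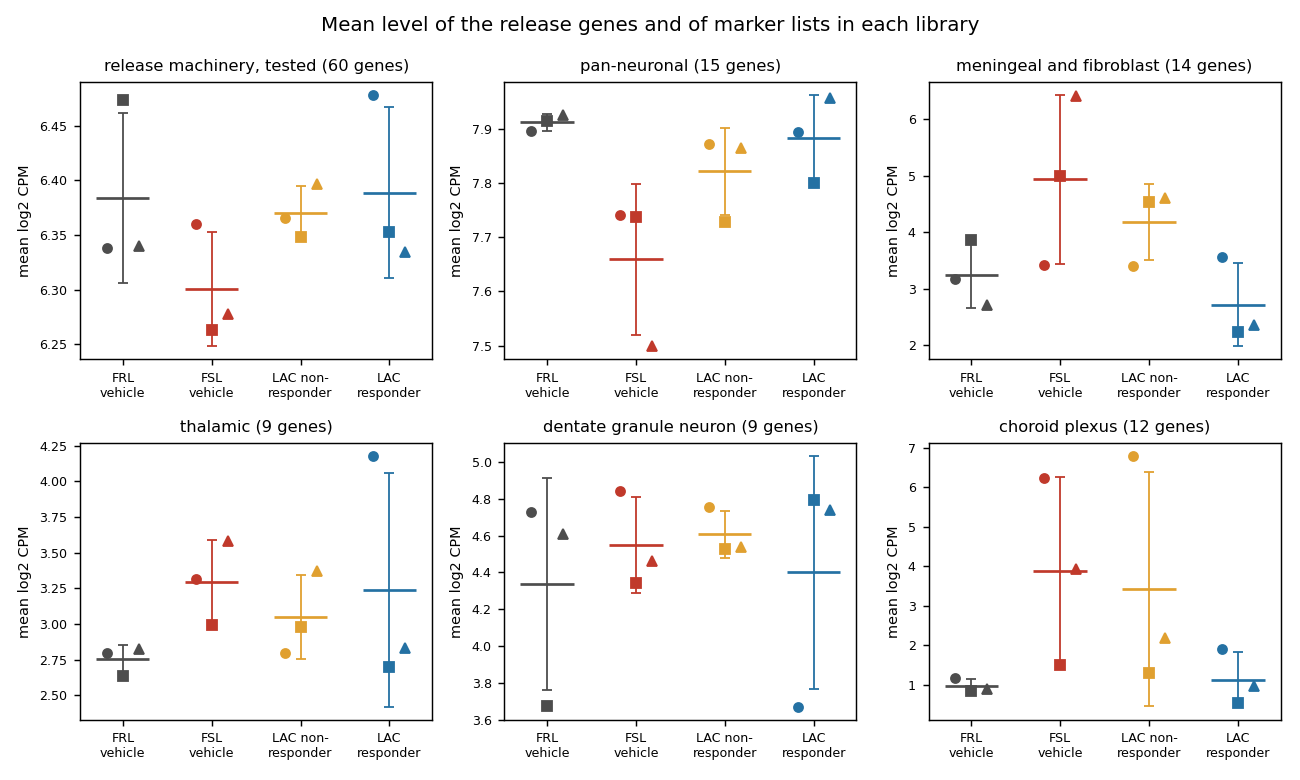
Mean log2 CPM (vertical axes, each with its own range) of the 60 tested release genes and of 5 marker lists in each library (circle, square and triangle for replicates 1, 2 and 3) by group, with the group mean (line) and SD (bar). The pan-neuronal mean is lowest in FSL vehicle 3, where the meningeal mean is highest, and the thalamic mean is highest in responder 1.

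The untreated lines were compared first. In FSL vehicle the level of most release genes was below that of FRL vehicle: 45 of the 60 tested members had a negative log2 fold change, with a median of -0.20, against a median of -0.01 over all 11750 genes. None of these members passed an adjusted p of 0.05 (edgeR quasi-likelihood test, Benjamini-Hochberg over all genes), where 0.0681% of all genes did, and the smallest adjusted p of a member was 0.152, for Stxbp4. At an unadjusted p under 0.05, 12 members (20%) were lower in FSL vehicle, against 4.53% of all genes, and 3 members (5%) were higher, against 9.35%. The 12 were Cabp1, Pclo, Rab3a, Rims1, Rims2, Snap25, Sv2a, Syt1, Syt5, Syt12, Vamp1 and Vamp4, and the 3 were Stxbp4, Unc13d and Vamp8. DESeq2 called 4 members at an adjusted p under 0.05 (Pclo, Stxbp4, Sv2a and Vamp1) and 1.43% of all genes, and limma-voom called 0 members. Without FSL vehicle 1, edgeR called Vamp1 and Vamp8 among 271 genes (2.28% of all). The mean of the pan-neuronal markers was lower in each FSL vehicle library than in each FRL vehicle library. Single markers differed in FSL vehicle 2. There Tubb3, Stmn2, Uchl1, Elavl4, Celf4, Ndrg4, Gap43 and Thy1 lay within the FRL vehicle range, and the others lay below it. In FSL vehicle 1 Rbfox3 and Camk2a lay above that range and most others below it. As the mean parts the lines without overlap, a fit with it as a covariate cannot tell line and marker content apart. In that fit the member median was -0.04. There 2 members (3.33%, against 3.89% of all genes) had an unadjusted p under 0.05 in either direction. The fit without the covariate gave 25% of members and 13.9% of all genes. Without FSL vehicle 3 the median was -0.11 and 8 members (13.1%, against 6.28%) had such a p. Without FSL vehicle 2 there were 25 (41%, against 21.6% of all genes). In a fit of the compared groups alone there were 9 (15%, against 8.97% of all genes).

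LAC responders were set against FSL vehicle next. Here 44 of the 60 members had a positive log2 fold change, with a median of 0.13 against 0.01 over all genes. Again 0 members passed the adjusted threshold in edgeR, as did 0% of all genes, and the smallest adjusted p was 0.237. At an unadjusted p under 0.05, 10 members (16.7%) were higher in responders, against 4.61% of all genes: Cabp1, Rims1, Snap25, Stxbp6, Sv2a, Syt2, Syt6, Unc13c, Vamp1 and Vamp4. Another 4 (6.67%) were lower, against 9.17% of all genes: Stxbp4, Unc13d, Vamp5 and Vamp8. DESeq2 called 4 members (Cabp1, Unc13c, Vamp1 and Vamp8) and 1.54% of all genes, and limma-voom 0 members. Without FSL vehicle 1, edgeR called Cabp1, Vamp1 and Vamp8 among 349 genes (2.94% of all). The pan-neuronal mean also parted responders from FSL vehicle without overlap, so a fit with it cannot tell group and marker content apart. With this covariate the median was 0.03. There 4 members (6.67%, against 3.23% of all genes) had an unadjusted p under 0.05 in either direction. The fit without the covariate gave 23.3% of members and 13.8% of all genes. Without FSL vehicle 3 the median was 0.06 and the number was 7 (11.5%, against 5.38%). It was 9 without responder 3 (14.8%, against 9.84%) and 23 without FSL vehicle 2 (37.7%, against 25.1%). In a fit of the compared groups alone it was 6 of 59 members tested (10.2%, against 7.97% of all genes).

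In LAC non-responders against FSL vehicle, 41 of 60 members had a positive log2 fold change, with a median of 0.07 against 0.00 over all genes. No member passed the adjusted threshold in edgeR, DESeq2 or limma-voom, with 0% of all genes called by edgeR and a smallest member adjusted p of 0.976. At an unadjusted p under 0.05 there were 4 members that were higher (6.67%, against 1.89% of all genes), namely Cabp1, Rims1, Snap25 and Vamp1, and 0 that were lower, against 2.32%. With the pan-neuronal covariate the number was 2 (3.33%, against 3.74% of all genes), as it was without non-responder 1 or non-responder 3 (against 3.31% and 3.35% of all genes). It was 7 without responder 1 (11.5%, against 4.73%) and 9 without FSL vehicle 1 or FSL vehicle 2 (14.8%, against 10% and 9.78%). Without FSL vehicle 1 the median was 0.14.

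With both LAC groups pooled against FSL vehicle, 0 members passed in edgeR (0% of all genes), 2 in DESeq2 (Cabp1 and Vamp1, with 0.536% of all genes) and 0 in limma-voom. Unadjusted, 9 members (15%) were higher, against 3.9% of all genes, and 2 (3.33%), Stxbp4 and Vamp8, were lower, against 7.8%. Without FSL vehicle 3 these 11 came to 4 (6.56%, against 3.87% of all genes) and without FSL vehicle 2 to 18 (29.5%, against 22.1%). Without FSL vehicle 1 edgeR called Vamp1 and Vamp8 among 323 genes (2.72% of all). In 5 members (8.33%, against 1.86% of all genes) all 6 LAC libraries lay above all 3 FSL vehicle libraries: Cabp1, Sv2a, Unc13c, Vamp1 and Vamp4. In 0 members did all 6 lie below, against 1.06% of all genes.

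No member separated responders from non-responders at the adjusted threshold. In this comparison 37 of 60 members had a positive log2 fold change (median 0.04, against 0.00 over all genes), and none passed the adjusted threshold in edgeR, DESeq2 or limma-voom (0% of all genes in edgeR, smallest member adjusted p 0.992). At an unadjusted p under 0.05, Cabp1 and Unc13c were higher in responders (2 members, 3.33%, against 1.18% of all genes) and Vamp8 was lower (1 member, 1.67%, against 1.96%). These 3 came to 1 without responder 1 or non-responder 1 (1.64%, against 2.3% and 2.9% of all genes). They came to 5 without FRL vehicle 2 or FSL vehicle 3 (8.33% and 8.2%, against 2.84% and 5.03%) and to 7 without responder 2 (11.5%, against 3.83%). In a test of all 4 groups at once 0.0255% of all genes and 0 members passed the adjusted threshold, and 9 members (15%) had an unadjusted p under 0.05, against 9.02% of all genes. In that test DESeq2 called 5 members (Cabp1, Stxbp4, Unc13c, Vamp1 and Vamp8) and 1.57% of all genes, and limma-voom called 0 members. Without FSL vehicle 1 edgeR called Vamp1 and Vamp8 among 98 genes (0.825% of all). Without FRL vehicle 3, 5 members (8.2%, against 6.61% of all genes) had an unadjusted p under 0.05.

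**Figure D2:**
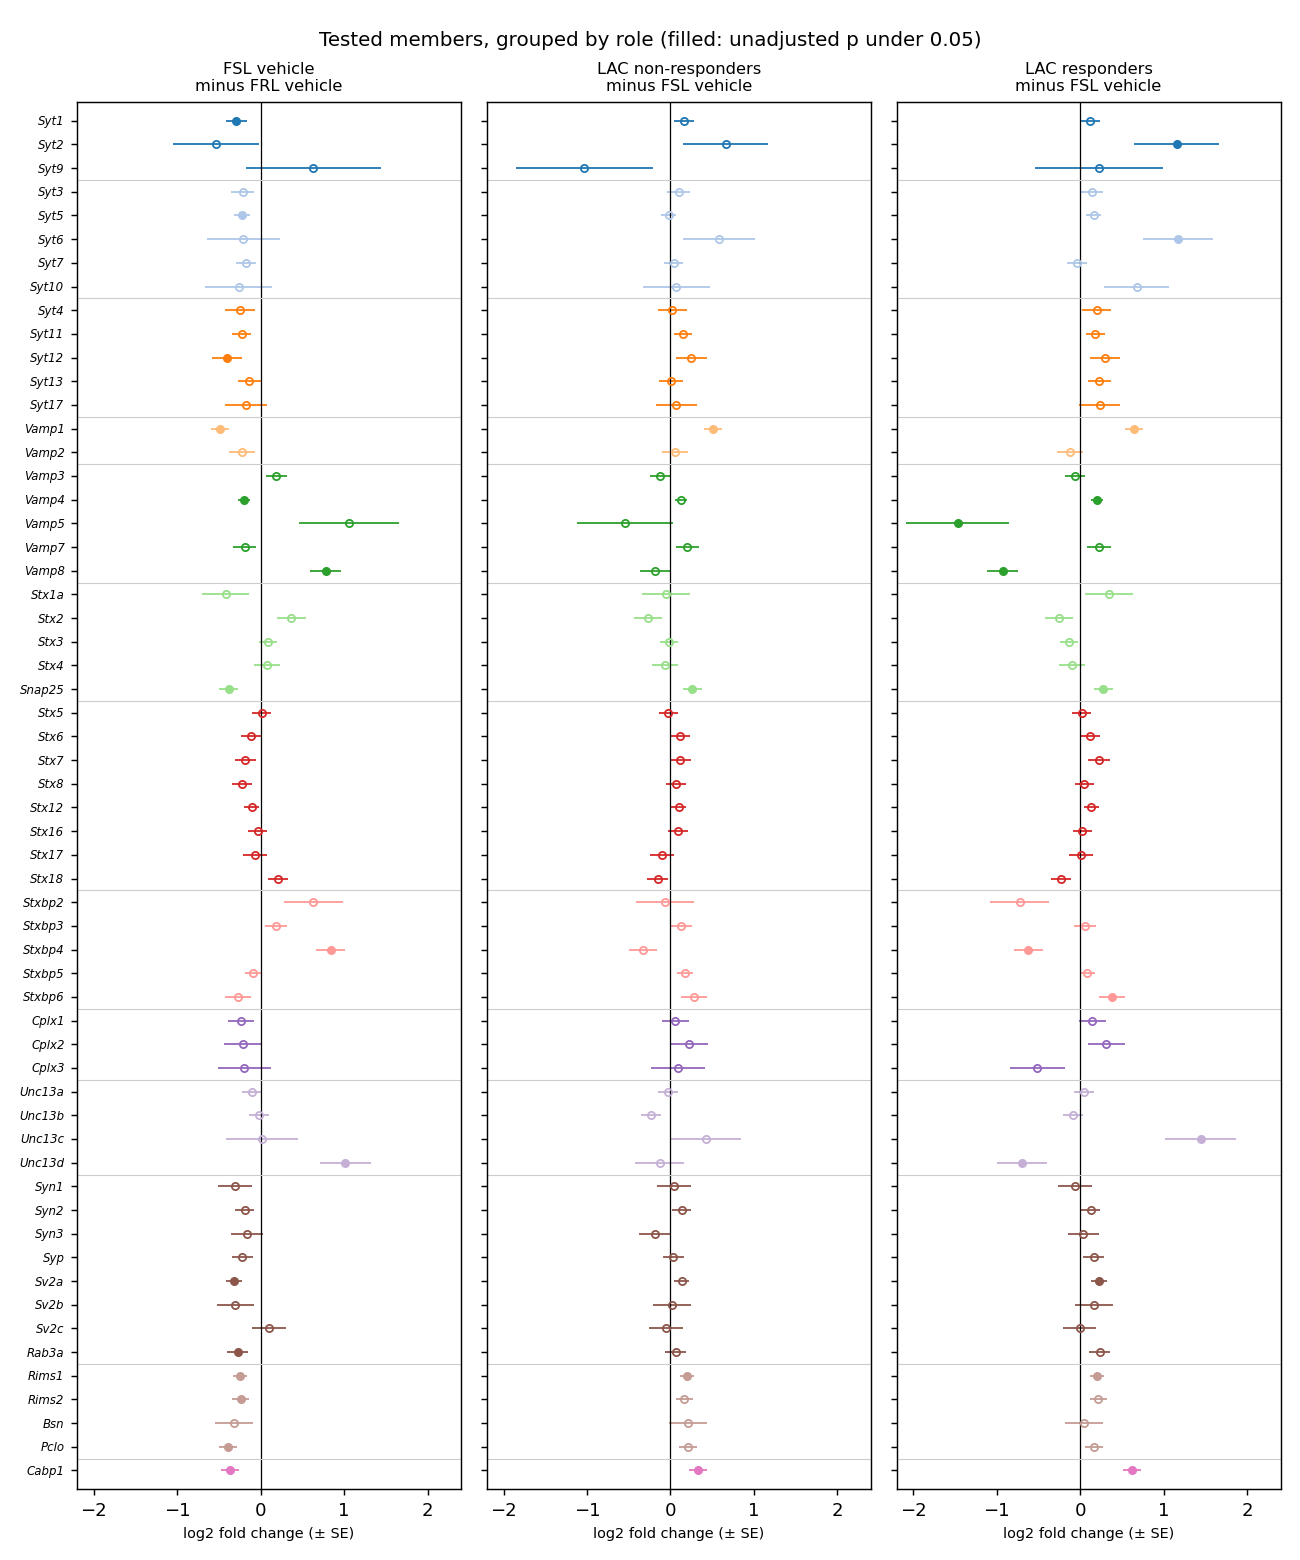
Log2 fold change (horizontal axis, bars ± SE) of 58 of the tested members, grouped by role, for FSL vehicle minus FRL vehicle, LAC non-responders minus FSL vehicle and LAC responders minus FSL vehicle; filled points have an unadjusted p under 0.05. In the left panel 43 points lie below 0, and in the other panels 39 and 42 lie above 0, all 3 sharing the FSL vehicle libraries.

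The vesicle SNAREs of synapses are Vamp1 and Vamp2, near relatives (synaptobrevins) that each supply the vesicle's strand of the SNARE bundle. Vamp1 had 241, 211 and 239 CPM in FRL vehicle, 192, 155 and 144 CPM in FSL vehicle, 243, 221 and 236 in non-responders and 278, 235 and 253 CPM in responders. All 3 FSL vehicle libraries were below each of the other 9, whose values overlapped between FRL vehicle and both LAC groups. Its log2 fold change was -0.49 ± 0.11 (SE; adjusted p = 0.195) in FSL against FRL vehicle, 0.51 ± 0.11 (adjusted p = 0.976) in non-responders and 0.64 ± 0.11 (adjusted p = 0.237) in responders against FSL vehicle. With the pan-neuronal covariate these were -0.24, 0.35 and 0.42. Vamp2 had 338, 393 and 423 CPM in FRL vehicle, 394, 256 and 340 CPM in FSL vehicle, 318, 311 and 398 in non-responders and 290.5, 325 and 293 CPM in responders. All 3 responder libraries were below FRL vehicle, every other pair of groups overlapped, and FSL vehicle held the lowest value of all. The log2 fold changes of Vamp2 were -0.22 ± 0.15, 0.05 ± 0.15 and -0.12 ± 0.15 in the same order.

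The ratio of Vamp1 to Vamp2 reads within a library does not depend on library scaling. It averaged 0.604 ± 0.094 in FRL vehicle, 0.506 ± 0.093 in FSL vehicle, 0.689 ± 0.088 in non-responders and 0.848 ± 0.117 in responders (mean ± SD, n = 3). In single libraries it was 0.712, 0.536 and 0.565 in FRL vehicle, 0.488, 0.607 and 0.424 in FSL vehicle, 0.764, 0.710 and 0.592 in non-responders and 0.958, 0.725 and 0.862 in responders. The 3 responder libraries lay above all 6 vehicle libraries and overlapped with the non-responders; the ratio was not tested. The ratio of Vamp1 to Snap25 was at most 0.127 in FSL vehicle, 0.115 to 0.149 in FRL vehicle, 0.141 to 0.145 in non-responders and 0.138 to 0.188 in responders, so that both LAC groups were above FSL vehicle and within or above the range of FRL vehicle.

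**Figure D3:**
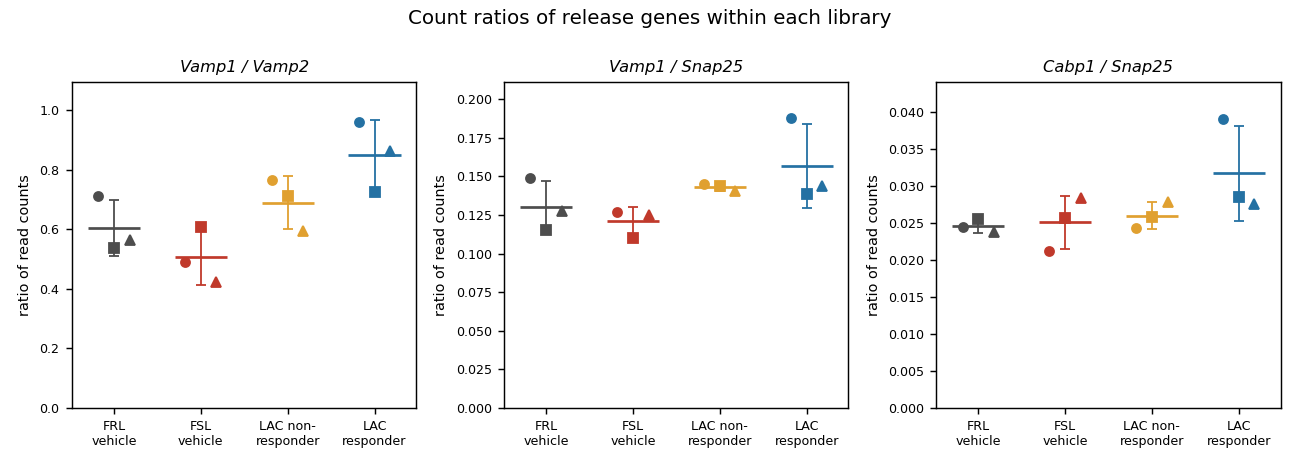
Ratio of read counts of 2 release genes within each library (vertical axes from 0), by group, with the group mean (line) and SD (bar). Vamp1 over Vamp2 is highest in the responder group (mean 0.848), and Cabp1 over Snap25 is highest in responder 1 (0.0391).

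Promoter windows are shown for Vamp1, Cabp1 and Vamp8, the 3 members of smallest p in responders against FSL vehicle, and for Vamp2, the near relative of Vamp1. Each is the 250 bases before the RefSeq gene start in the assembly GRCr8, 5′ to 3′ on the gene's strand, while the submitters' processing notes give rn5 as the build of the counts. Capitals mark matches, on either strand, to the cAMP response element (TGACGTCA), the GC box (GGGCGG), the TATA box (TATAAA) or the E-box (CACGTG).
Vamp1, chr4:159698644-159698893, plus strand: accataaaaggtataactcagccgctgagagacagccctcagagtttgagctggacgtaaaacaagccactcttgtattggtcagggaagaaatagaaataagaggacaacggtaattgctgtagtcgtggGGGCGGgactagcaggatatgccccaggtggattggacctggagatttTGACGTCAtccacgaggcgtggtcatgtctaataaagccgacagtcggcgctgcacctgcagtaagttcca
Vamp2, chr10:54292539-54292788, plus strand: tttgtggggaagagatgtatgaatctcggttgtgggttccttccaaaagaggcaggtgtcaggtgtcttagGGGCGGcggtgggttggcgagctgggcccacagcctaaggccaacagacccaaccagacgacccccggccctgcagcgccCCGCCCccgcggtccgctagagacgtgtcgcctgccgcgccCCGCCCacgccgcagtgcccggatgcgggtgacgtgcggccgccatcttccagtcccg
Cabp1, chr12:47085042-47085291, plus strand, the first of 2 windows: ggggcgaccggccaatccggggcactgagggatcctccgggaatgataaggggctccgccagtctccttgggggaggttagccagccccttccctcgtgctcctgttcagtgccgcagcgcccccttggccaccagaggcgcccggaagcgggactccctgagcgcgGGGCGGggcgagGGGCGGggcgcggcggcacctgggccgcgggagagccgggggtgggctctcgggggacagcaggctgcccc
Vamp8, chr4:106005643-106005892, minus strand: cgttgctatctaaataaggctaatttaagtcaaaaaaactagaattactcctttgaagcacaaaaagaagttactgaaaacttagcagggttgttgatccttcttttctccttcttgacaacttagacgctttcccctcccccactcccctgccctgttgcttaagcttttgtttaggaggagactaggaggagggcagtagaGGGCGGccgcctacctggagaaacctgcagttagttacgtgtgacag
The Vamp1 window held 1 cAMP response element and 1 GC box, that of Vamp2 held 3 GC boxes, that of Cabp1 2 and that of Vamp8 1. The second Cabp1 window held none of the 4 motifs. Windows were found for 52 of the 65 members (54 windows, of 33469 in all). The cAMP response element stood in 2 member windows, those of Syn1 and Vamp1 (3.70%, against 1.59% of all windows). GC boxes stood in 36 (66.7%, against 30.5%), TATA boxes in 2, Stx19 and Stxbp3 (3.70%, against 12.9%), and E-boxes in 4 (7.41%, against 5.59%). The median GC content of member windows was 62.2%, against 51.2% for all windows. A match describes the letters in the window and is not a site shown to be bound.

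The other Vamp proteins serve fusion outside the classical synaptic vesicle. Vamp8, which acts in late endosomes and in secretory granules of many non-neuronal cells, had 7.33, 6.27 and 5.96 CPM in FRL vehicle and 8.76, 11.2 and 13.6 CPM in FSL vehicle. Non-responders had 10.7, 9.89 and 8.90 CPM and responders 6.49, 5.33 and 5.80 CPM. FSL vehicle and non-responders overlapped and lay above FRL vehicle and responders, which overlapped with each other. These values rest on 35 to 97 reads per library. The log2 fold change was 0.78 ± 0.19 (adjusted p = 0.210) in FSL against FRL vehicle and -0.93 ± 0.19 (adjusted p = 0.237) in responders against FSL vehicle. It was -0.19 ± 0.18 in non-responders against FSL vehicle and -0.74 ± 0.19 (adjusted p = 0.992) in responders against non-responders. FSL vehicle 3, with the highest Vamp8 level, also had the highest summed meningeal markers. With their mean as a covariate the line difference was 0.52, the responder difference from FSL vehicle -0.60 and the difference between responders and non-responders -0.54.

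Vamp4, which works in endosome-to-Golgi traffic and in slow forms of vesicle recycling, was the member with the smallest spread within groups (SD 0.0673 on the log2 scale, against a median of 0.183 over members and 0.182 over all genes). It had 83.8, 86.0 and 96.4 CPM in FRL vehicle, 81.2, 76.9 and 73.1 CPM in FSL vehicle, 82.7, 84.1 and 84.4 in non-responders and 88.8, 89.5 and 86.5 CPM in responders. Every FSL vehicle library was lower than the other 9, by a narrow margin between 81.2 and 82.7 CPM. Its log2 fold change was -0.20 ± 0.07 in FSL against FRL vehicle and 0.20 ± 0.07 in responders against FSL vehicle (adjusted p = 0.273 and 0.292). Vamp5, a form first known from muscle, had 3 to 28 reads per library and a log2 fold change of -1.47 ± 0.62 in responders against FSL vehicle (adjusted p = 0.340), with overlapping groups.

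On the plasma membrane side, Snap25, which gives 2 strands to the SNARE bundle, had 1619, 1827 and 1874 CPM in FRL vehicle, 1512, 1405 and 1154 CPM in FSL vehicle, 1675, 1531 and 1677 in non-responders and 1481, 1701 and 1756 CPM in responders. FSL vehicle was below FRL vehicle and non-responders in every library and overlapped with responders. The log2 fold changes were -0.39 ± 0.11 (adjusted p = 0.251) between the lines, 0.26 ± 0.11 in non-responders and 0.28 ± 0.11 in responders. The non-responder difference was 0.09 with the pan-neuronal covariate and 0.16 without FSL vehicle 3. Stx1a, a neuronal syntaxin, was highest in FRL vehicle 2 (204 CPM), responder 1 (185 CPM) and FSL vehicle 2 (148 CPM), against 86.7 to 123 CPM in the other 9 libraries. Its log2 fold change between the lines was -0.42 ± 0.29, and its groups overlapped. The 8 syntaxins of endosomes, Golgi and endoplasmic reticulum had log2 fold changes between -0.22 and 0.21 between the lines, between -0.16 and 0.11 in non-responders and between -0.23 and 0.22 in responders. Of these 8, 0 had an unadjusted p under 0.05 in each comparison, against 13.9%, 4.21% and 13.8% of all genes in the same order, so the count is no result about them. Stx12, an endosomal syntaxin, had 0.13 ± 0.09 in responders.

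Among the syntaxin-binding proteins, Stxbp4 had the smallest p of all members between the lines. It binds syntaxin 4 and is known from insulin-regulated transport of a glucose carrier. It had 9.91, 8.67 and 8.18 CPM in FRL vehicle, 17.7, 13.3 and 17.1 CPM in FSL vehicle, 10.95, 13.1 and 14.3 in non-responders and 11.6, 10.9 and 8.64 CPM in responders. FSL vehicle was above FRL vehicle and responders in every library, and non-responders overlapped with FSL vehicle. Between the lines its log2 fold change was 0.84 ± 0.17 (adjusted p = 0.152), with -0.33 ± 0.17 in non-responders and -0.62 ± 0.17 (adjusted p = 0.266) in responders against FSL vehicle. When the 3 libraries rich in choroid plexus markers (FSL vehicle 1 and 3 and non-responder 1) were left out, the responder difference was -0.36, but FSL vehicle 2 is then the only FSL vehicle library and is assumed to vary like the other groups. Stxbp6, also called amisyn, a SNARE-binding brake on fusion, had a log2 fold change of 0.38 ± 0.16 in responders against FSL vehicle (adjusted p = 0.328), with overlapping groups.

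Of the 3 tested complexins, 0 had an unadjusted p under 0.05 in any comparison, against 3.14% to 13.9% of all genes. With so few genes the count is no result about them. Cplx1 had 465, 549 and 472 CPM in FRL vehicle, 420, 514 and 324 CPM in FSL vehicle, 491, 397 and 423 in non-responders and 408, 518 and 466 CPM in responders. Its groups overlapped in every pair, and its log2 fold change was -0.24 ± 0.16 between the lines. Cplx3, the form known best from the retina, was at 9.41 to 10.4 CPM in FSL vehicle and 4.78 to 9.17 CPM in responders, where the log2 fold change was -0.51 ± 0.33.

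**Figure D4:**
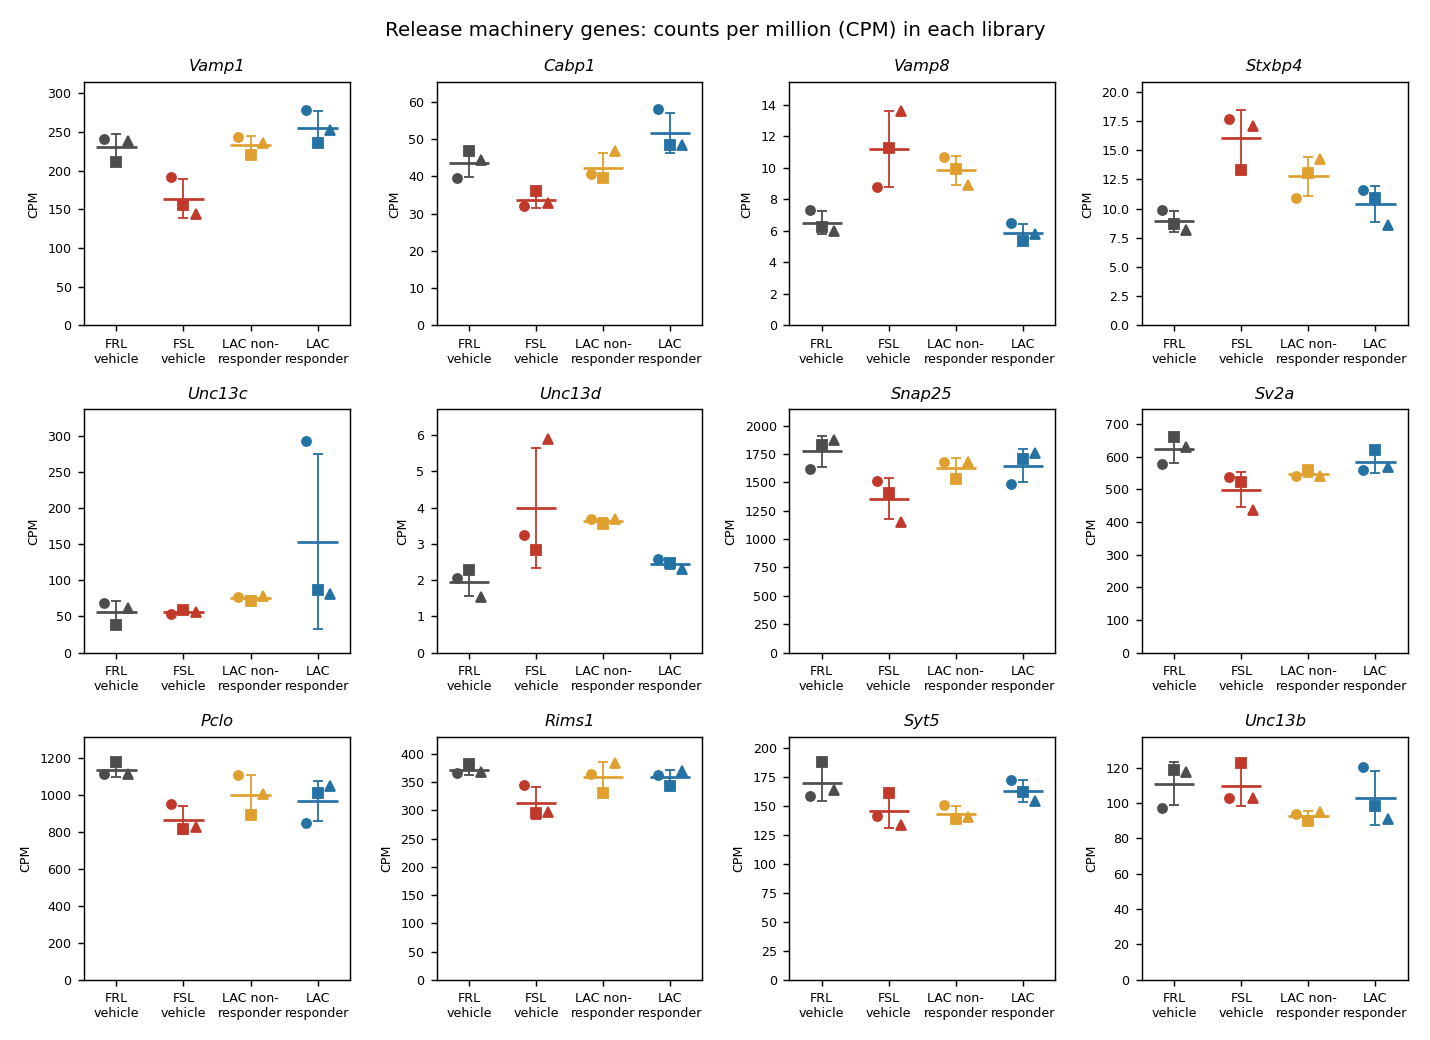
CPM (vertical axes from 0) of 12 members that were among the 5 of smallest p in at least 1 comparison, by group, with each library as a point (circle, square and triangle for replicates 1, 2 and 3), the group mean (line) and SD (bar). Vamp1 is lowest in FSL vehicle (144 to 192 CPM), Vamp8 and Stxbp4 are highest there, and responder 1 stands apart for Unc13c (293 CPM).

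The Unc13 proteins prime docked vesicles for release. Unc13c (Munc13-3), known best from the cerebellum, had 68.1, 38.5 and 61.5 CPM in FRL vehicle, 54.0, 58.7 and 56.7 CPM in FSL vehicle, 77.2, 71.9 and 77.9 in non-responders and 293, 86.9 and 80.6 CPM in responders. Both LAC groups were above FSL vehicle in every library, and responder 1 was more than 3 times as high as any other library. The log2 fold change in responders against FSL vehicle was 1.44 ± 0.43 (adjusted p = 0.266), and without responder 1 it was 0.57. Against non-responders it was 1.02 ± 0.42 (adjusted p = 0.992), and 0.15 without responder 1. Responder 1 was also the library with the highest summed thalamic markers and had a low mean of the granule neuron markers. Of the thalamic markers, only Slc17a6, Tcf7l2, Calb2 and Lhx9 were highest there. With the thalamic mean as a covariate the responder difference was 1.22 from FSL vehicle and 0.55 from non-responders. Unc13a, the main neuronal priming factor, had 310, 297 and 305 CPM in FRL vehicle, 321, 285 and 244 CPM in FSL vehicle, 299, 245 and 289.9 in non-responders and 262, 285 and 332 CPM in responders. Its groups overlapped in every pair, and its log2 fold changes stood between -0.10 and 0.08.

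The remaining priming genes are Unc13d and Unc13b. Unc13d (Munc13-4), which primes granules in blood and immune cells, had 2.06, 2.27 and 1.53 CPM in FRL vehicle, 3.25, 2.84 and 5.88 CPM in FSL vehicle, 3.69, 3.56 and 3.67 in non-responders and 2.57, 2.48 and 2.29 CPM in responders. FRL vehicle and responders were below FSL vehicle and non-responders in every library, at 9 to 42 reads. The log2 fold change was 1.01 ± 0.31 between the lines (adjusted p = 0.251), and -0.57 ± 0.30 between responders and non-responders (adjusted p = 0.992), which was -0.23 with the meningeal covariate. Microglial markers (10 of 10, none at 0) summed to 315 to 338 CPM in FRL vehicle, 389 to 456 CPM in FSL vehicle, 351 to 432 in non-responders and 358 to 424 CPM in responders, and their part in the Unc13d values was not tested. Unc13b (Munc13-2) was at 90.1 to 94.7 in non-responders and 103 to 123 CPM in FSL vehicle, without overlap, with a log2 fold change of -0.24 ± 0.12 (adjusted p = 0.976), which was -0.15 without FSL vehicle 2.

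Synaptotagmins sense calcium on the vesicle. Syt1, the fast sensor of most forebrain synapses, had 838, 952 and 822 CPM in FRL vehicle, 782, 758 and 592 CPM in FSL vehicle, 867, 705 and 810 in non-responders and 703, 797 and 812 CPM in responders. FSL vehicle was below FRL vehicle in every library (log2 fold change -0.29 ± 0.12, adjusted p = 0.318) and overlapped with both LAC groups (0.16 ± 0.12 and 0.12 ± 0.12). Syt2 and Syt9, the other fast sensors, were the members with the largest spread within groups, at 0.732 and 1.01 on the log2 scale. Syt2 had 13.0, 34.9 and 52.3 CPM in FRL vehicle, 26.1, 12.9 and 29.7 CPM in FSL vehicle, 26.5, 43.8 and 38.0 in non-responders and 79.1, 45.4 and 28.1 CPM in responders. Syt9 reached 11.1 CPM in responder 1, where other libraries had 0.945 to 4.34 CPM. Responder 1 was likewise the highest library for Syt6 (12.7 CPM, against 2.90 to 5.94 CPM elsewhere) and Syt10 (23.6 CPM, against 7.13 to 14.1 CPM). The part of the thalamic markers, whose sum was highest in the same library, was not tested for these 4 genes. The log2 fold changes of Syt2 and Syt6 in responders against FSL vehicle were 1.16 ± 0.51 and 1.17 ± 0.42 (adjusted p = 0.351 and 0.283).

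Other synaptotagmins differ in how tightly they bind calcium, and some do not bind it. Syt5 had 159, 188 and 164 CPM in FRL vehicle, 141, 161 and 133 CPM in FSL vehicle, 150, 139 and 140 in non-responders and 172, 162 and 154 CPM in responders. Responders were above non-responders in every library, with a log2 fold change of 0.18 ± 0.09 (adjusted p = 0.992), and FSL vehicle overlapped with every group. Syt11, which lacks calcium binding and takes part in membrane retrieval, had 591, 615 and 542 CPM in FRL vehicle and 504, 576 and 410 CPM in FSL vehicle, with a log2 fold change of -0.23 ± 0.11. All 5 tested members of its kind (Syt4, Syt11, Syt12, Syt13 and Syt17) had a negative log2 fold change between the lines, from -0.40 to -0.14, and a positive one in responders against FSL vehicle, from 0.18 to 0.30. Of these 5, 1 (Syt12) had an unadjusted p under 0.05 between the lines, where 13.9% of all genes did.

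Vesicle proteins outside the SNARE families include the synapsins, which tether the reserve pool, synaptophysin (Syp), the glycoproteins Sv2a to Sv2c and the small GTPase Rab3a. Between the lines 7 of 8 had a negative log2 fold change, with a median of -0.25. Sv2a, the binding site of the antiepileptic drug levetiracetam, had 576, 660 and 630 CPM in FRL vehicle, 537, 522 and 436 CPM in FSL vehicle, 542, 560 and 540 in non-responders and 559, 620 and 569 CPM in responders. FSL vehicle was lowest, with its highest library at 537 CPM and the lowest non-responder at 540.35 CPM. The log2 fold change was -0.32 ± 0.09 (adjusted p = 0.251) between the lines and 0.22 ± 0.09 (adjusted p = 0.329) in responders. Sv2b had 1059, 1389 and 928 CPM in FRL vehicle, 796, 1275 and 664 CPM in FSL vehicle, 1062, 837 and 872 in non-responders and 1115, 951 and 997 CPM in responders. Its groups overlapped in every pair, FSL vehicle spanning the widest range. Its line difference of -0.30 ± 0.22 was near its error. Rab3a had -0.28 ± 0.12 between the lines and 0.24 ± 0.12 in responders.

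At the active zone, Pclo (piccolo) and Bsn (bassoon) are large scaffolds, and Rims1 and Rims2 link vesicles to calcium channels and to Unc13 proteins. All 4 had negative log2 fold changes between the lines, and all 4 had positive ones in each LAC group against FSL vehicle. Pclo had 1115, 1178 and 1113 CPM in FRL vehicle, 949.95, 816 and 827 CPM in FSL vehicle, 1107, 894 and 1007 in non-responders and 848, 1010 and 1049 CPM in responders. FRL vehicle was the highest group without overlap. Its log2 fold change was -0.39 ± 0.11 (adjusted p = 0.238). Rims1 had 366, 382 and 367 CPM in FRL vehicle, 346, 296 and 297 CPM in FSL vehicle, 364, 331 and 384 in non-responders and 363, 343 and 369 CPM in responders, and FSL vehicle overlapped with both LAC groups (0.20 ± 0.08 in each). Bsn had 1285, 1138 and 1183 CPM in FRL vehicle and 1286, 613 and 995 CPM in FSL vehicle, the widest range of any scaffold within a group. Its log2 fold change was -0.32 ± 0.23.

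Members were not all low in the same FSL vehicle library. In FSL vehicle 2, 24 members (40%, against 36.6% of all genes) had the lowest value of that group, among them Bsn, Syn1 and Vamp2, and 19 (31.7%, against 33.9%) had the highest, among them Syp, Sv2b, Rab3a, Syt4 and Stx1a. These shares are near those of all genes. Syn1, for example, had 416, 258 and 380 CPM in the 3 FSL vehicle libraries, whereas Syp had 413, 487 and 344 CPM. FSL vehicle 3 was the lowest of all 12 libraries for 23 of the 60 members, against 21.1% of all genes tested, and FSL vehicle 2 for 13, against 14.3%. FRL vehicle 2 was the highest for 18 members, against 10.1% of all genes, and also had a low mean of the granule neuron markers.

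**Figure D5:**
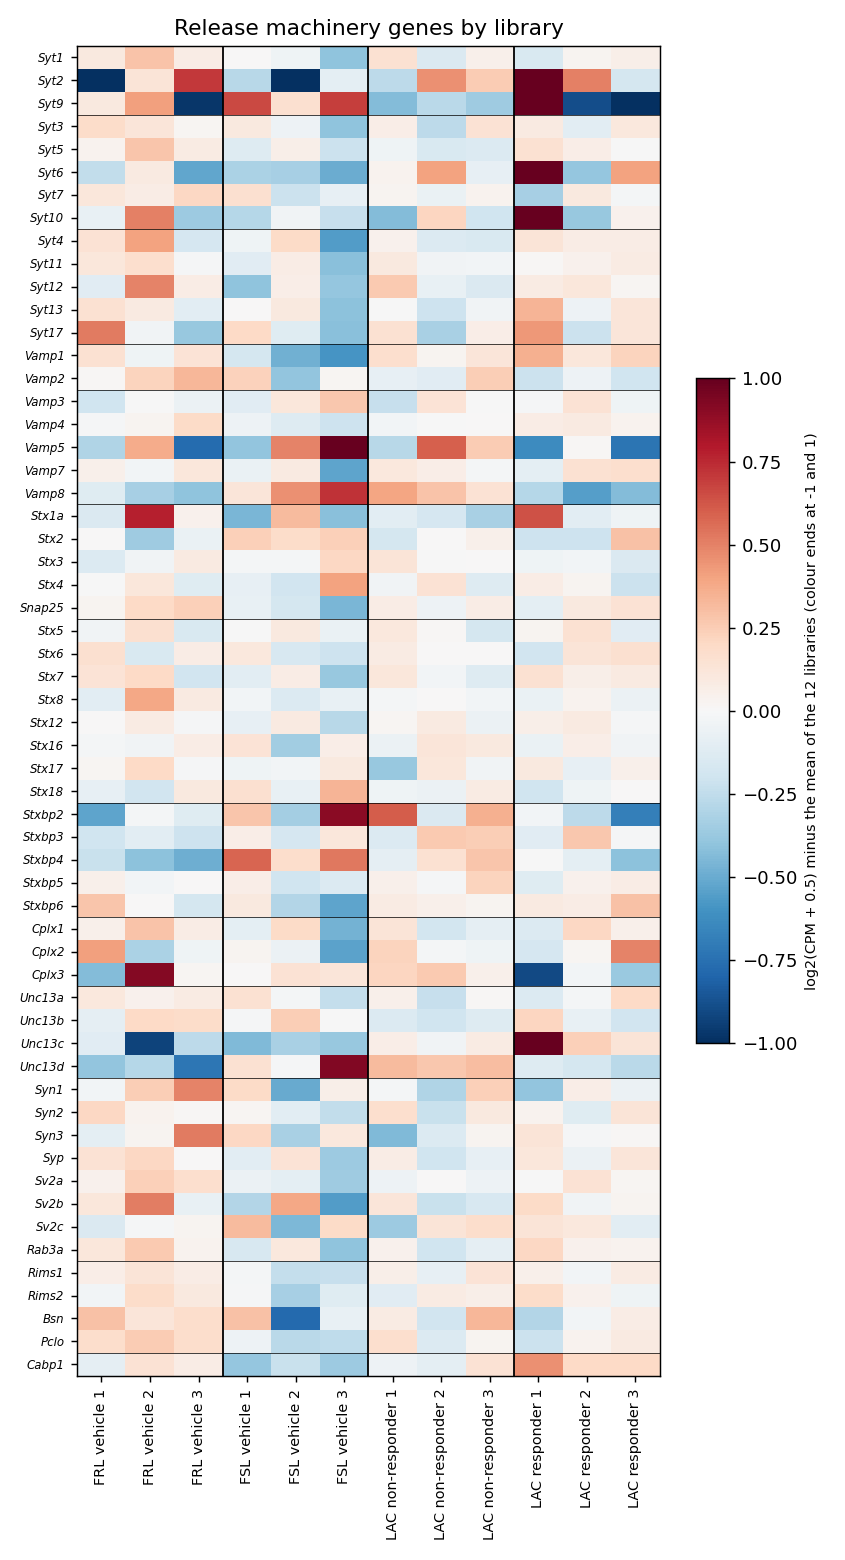
Log2 level of 58 tested members (rows, by role) in each library (columns) minus its mean over the 12 libraries, with colours ending at -1 and 1 log2 unit. Within FSL vehicle the members low in library 2 (Bsn, Syn1, Vamp2) differ from those low in library 3 (Syp, Sv2b, Syt4), and responder 1 is high for Syt2, Syt9, Syt6, Syt10 and Unc13c.

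Cabp1, a calcium-binding relative of calmodulin that modulates the calcium channels of nerve endings, had 39.5, 46.7 and 44.5 CPM in FRL vehicle, 32.1, 36.0 and 32.8 CPM in FSL vehicle, 40.6, 39.4 and 46.8 in non-responders and 58.0, 48.5 and 48.5 CPM in responders. FSL vehicle was the lowest group and responders the highest, each without overlap, and FRL vehicle and non-responders shared a range. Its log2 fold change was -0.37 ± 0.11 (adjusted p = 0.251) between the lines, 0.33 ± 0.11 (adjusted p = 0.976) in non-responders and 0.62 ± 0.11 (adjusted p = 0.237) in responders against FSL vehicle. Between responders and non-responders it was 0.29 ± 0.11 (adjusted p = 0.992), and 0.19 without FSL vehicle 3 and responder 1. With the pan-neuronal covariate the differences from FSL vehicle were 0.26 and 0.52. The ratio of Cabp1 to Snap25 reads was 0.0246 ± 0.00092 in FRL vehicle, 0.0251 ± 0.0036 in FSL vehicle, 0.0260 ± 0.0018 in non-responders and 0.0317 ± 0.0064 in responders (mean ± SD, n = 3). The groups of this ratio overlapped, apart from responders against FRL vehicle, and responder 1 was the highest at 0.0391.

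The wider release cycle was followed in a list of 91 partners, of which 84 were in the files and tested: SNARE recycling, vesicle transport, active zone and channels, and endocytosis. None passed the adjusted threshold in edgeR in any comparison. The medians of their log2 fold changes were -0.18 between the lines, with 17 of 84 positive, 0.07 in non-responders, with 57 positive, and 0.13 in responders, with 64 positive. At an unadjusted p under 0.05, 3 were higher between the lines (3.57%, against 9.35% of all genes) and 17 lower (20.2%, against 4.53%). In non-responders 5 were higher (5.95%, against 1.89%) and 1 lower (1.19%, against 2.32%), and in responders 9 were higher (10.7%, against 4.61%) and 3 lower (3.57%, against 9.17%). Cadps, which primes dense-core vesicles, had 411, 453 and 441 CPM in FRL vehicle, 348, 356 and 305 CPM in FSL vehicle, 429, 398 and 398 in non-responders and 400.1, 416 and 455 CPM in responders. Its FSL vehicle libraries were below all 9 others (log2 fold change -0.37 ± 0.08 between the lines, adjusted p = 0.195; 0.28 ± 0.08 in non-responders and 0.33 ± 0.08 in responders). Ppfia3, a liprin scaffold of the active zone, had -0.31 ± 0.08 between the lines. Ston1, an endocytic adaptor, had 19.2 CPM in FSL vehicle 3 and 4.71 to 9.90 CPM elsewhere, FSL vehicle 3 being the library with the highest meningeal markers, with a log2 fold change of 1.12 ± 0.30 between the lines and -1.23 ± 0.30 in responders. Rab3b, a relative of Rab3a, had -0.65 ± 0.17 in responders, and Eps15, a clathrin adaptor, 0.29 ± 0.10 in non-responders. Snap23 had -0.27 ± 0.14 in responders against non-responders. Slc17a6, a vesicular glutamate transporter that also stands in the thalamic list, had 274 CPM in responder 1 and 31.7 to 69.5 CPM elsewhere.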

How the data were processed

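RNA from about 130 mg of ventral dentate gyrus tissue per sample was sequenced as stranded, ribosomal-RNA-depleted libraries with single reads of 100 bp (per the labels' protocols). The authors deposited raw read counts per gene symbol, 1 table per library. The submitters' processing notes list the genome build rn5 and, without roles or settings, edgeR 3.12.0, TopHat2 2.0.9, Trimmomatic 0.33, HTSeq 0.6.1 and FastQC 0.11.3. How the counting treated strand was not given in the sources used here, and a gene's reads cannot be told apart from those of an overlapping or antisense partner. Of all reads in the deposited tables, 47.7% to 52.7% fell in no feature, 24.3% to 28.4% were not uniquely aligned and 0.0756% to 0.106% were ambiguous. These 5 summary lines were left out, and members with near copies may have lost reads.

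Counts were fitted with edgeR 4.0.16 in R 4.3.3 (TMM factors, filterByExpr by group, robust quasi-likelihood, a mean per group over all 12 libraries), with two-sided p-values adjusted by Benjamini-Hochberg over all 11750 genes tested and a threshold of 0.05. Standard errors are the log2 fold change divided by the square root of F. Marker means used log2 CPM with a prior count of 2. The script was tested on simulated data. Alternatives were DESeq2 1.42.0, limma-voom (limma 3.58.1), other size factors, no filter, the compared groups alone, marker means as covariates, the replicate number as a block, and libraries left out. A thalamic covariate, a block for FSL vehicle and non-responders alone, and leaving out FSL vehicle 3 with responder 1 were chosen after seeing the data. Named in the text are the 5 members of smallest p in each comparison, those past the threshold, the most abundant member of each role, members below the filter, and the 3 partners of smallest p in each comparison. Other members named in the text were picked with their values in view. Values of 2 members are not reported here. The members and all lists were chosen with earlier results of these data known. The labels do not say that replicate numbers pair the samples. Same-numbered libraries of FSL vehicle and non-responders deviated together (correlations over genes of 0.581, 0.212 and 0.426). In no other pair of groups were all 3 correlations over 0.1. Libraries of these groups with different numbers ran from -0.502 to 0.318 (FSL vehicle 3 with non-responder 2). FRL vehicle 2 with responder 1 reached 0.356, so a correlation of this size does not show a pairing.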

Additional observations from a re-analysis of the deposited data

How the results depend on the processing

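In edgeR the count of members past the adjusted threshold was 0 in every comparison. It stayed 0 with other size factors, without the count filter, with any of the 3 marker covariates, with the compared groups alone and in limma-voom. DESeq2 called 4 members between the lines (of 168 genes), 4 in responders against FSL vehicle (of 181), 2 in both LAC groups against FSL vehicle (of 63) and 5 over the 4 groups (of 184), and 0 in non-responders against FSL vehicle and in responders against non-responders. Leaving out each library in turn gave 0 to 2 members between the lines, 0 to 3 in responders against FSL vehicle, 0 to 2 in both LAC groups and 0 to 2 over the 4 groups, every value above 0 coming without FSL vehicle 1. The other comparisons stayed at 0. The cause was not tested.

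With the replicate block the paired fit called 0 members in every comparison. At an unadjusted p under 0.05 it gave 14 members between the lines (23.3%, against 13.5% of all genes) and 13 in responders (21.7%, against 13.4%). It gave 3 in non-responders and 3 between the LAC groups (5% each, against 4.09% and 3.05% of all genes). The block changed no call among members. Over all genes the calls went from 8 to 4 between the lines and from 3 to 2 over the 4 groups. For FSL vehicle and non-responders alone the block gave 0 calls and 4 members at an unadjusted p under 0.05 (6.67%, against 4.74% of all genes).

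Over 25 results for named members and 630 alternative values, 0 changed direction. These members were picked for the smallest p in the same libraries that the alternatives refit, so the count is no independent support. Among the larger moves, Snap25 in both LAC groups went from 0.27 to 0.07 with the pan-neuronal covariate. Without the 3 libraries rich in choroid plexus markers Stxbp4 there went from -0.47 to -0.16, a value against FSL vehicle 2 alone. The median over members moved from -0.20 to -0.04 (lines), from 0.13 to 0.03 (responders) and from 0.11 to 0.03 (both LAC groups) with the pan-neuronal covariate, and to -0.13, 0.05 and 0.04 with the meningeal covariate. In non-responders without FSL vehicle 1 it was 0.14, and between the LAC groups it turned from 0.04 to -0.02 with the meningeal and -0.0025 with the pan-neuronal covariate. Depth limits Vamp5, Syt9 and Unc13d most, with 3, 6 and 9 reads in their lowest library.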
